A study of Mus musculus with 6 samples.

Results

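Chemokines are small secreted proteins that steer the movement of white blood cells, and chemokine receptors are the seven-pass membrane proteins that read them through Gi proteins. CC, CXC, CX3C and XC name the arrangement of the conserved cysteines in the ligand, and a receptor is named after the class of ligand it binds. In bone marrow, CXCL12 from stromal cells holds stem cells, progenitors and leukemic blasts in place through its receptor CXCR4, while CCR2 and CXCR2 are known for the release of monocytes and neutrophils into blood. The genes described here are all protein-coding genes of the count table whose GENCODE M21 symbol starts with Ccl, Cxcl, Ccr, Cxcr, Cx3c, Xcr, Xcl or Ackr followed by a digit. They number 57 of 35932 genes, with 20 CC ligands, 14 other ligands, 11 CC receptors, 8 other receptors and 4 atypical receptors, which bind chemokines without Gi signalling.

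RNA was sequenced from mouse bone marrow blasts of an acute myeloid leukemia that carries MLL-AF9, a fusion protein made from KMT2A (MLL) and MLLT3 (AF9), in 3 libraries of resistant and 3 libraries of sensitive blasts. All 6 libraries bear the genotype label MLL-AF9+. Resistant blasts are labelled with Cytarabin+Doxorubicin, a nucleoside analog and an anthracycline used together as chemotherapy, and sensitive blasts with vehicle. Resistance and drug exposure coincide in the labels and cannot be told apart. The labels give no strain, age, dose or time of harvest, no count of animals, and no statement on how the fusion was introduced or whether the replicates were separate animals. Where the replicates are technical, the p-values reflect technical spread alone. In a bulk library, fewer cells of a type and less RNA per cell cannot be told apart.

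The libraries held 22206341 to 31856009 counts, and 3 counts, the floor used here, equalled 0.0945 to 0.137 CPM in them (CPM are counts scaled to a common library size, here with TMM factors). Blast genes were abundant in every library, among them Ptprc, Mpo, Kit and Hoxa9. The 8 genes of blast identity summed to 2540 to 3139 CPM in resistant and 3228 to 3784 CPM in sensitive blasts. Of the 8, all tested, 4 were lower, 1 was higher and 3 did not pass. Mpo, the largest part of the sum, was at 1502 CPM in resistant and 1893 CPM in sensitive blasts and did not pass. Hoxa9 was the higher gene, at 269 CPM in resistant and 199 CPM in sensitive blasts (edgeR adjusted p = 0.00088). The summed markers of neutrophils, of monocytes and macrophages, and of erythroid cells differed between the groups. The 9 markers of mature neutrophils summed to 24.6 to 43.3 CPM in resistant and 132 to 157 CPM in sensitive blasts, with all 8 tested lower. The 10 markers of monocytes and macrophages summed to 621 to 744 CPM in resistant and 1013 to 1153 CPM in sensitive blasts. Of the 10, all tested, 3 were lower, 1 was higher and 6 did not pass. Over all tested genes, 20.8% were lower and 18.5% were higher. Ly6c2, at 264 CPM in resistant and 681 CPM in sensitive blasts, made up most of the difference. Vcam1 was higher, at 240 CPM in resistant and 161 CPM in sensitive blasts. The 7 erythroid markers summed to 0.158 to 1.64 CPM in resistant and 46.0 to 80.8 CPM in sensitive blasts.

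The comparison asks how chemokine and receptor transcripts of resistant blasts differed from those of sensitive blasts. Most of the family was close to silent in both groups. Of the 57 genes, 12 had no count in any library, 27 had fewer than 10 counts over all 6 libraries, and 15 passed the low-count filter and were tested. Among these 15, 5 were lower in resistant blasts, 0 were higher and 10 did not pass the edgeR quasi-likelihood test at a threshold of 0.05 (p-values adjusted by Benjamini-Hochberg across all 13414 tested genes). The lower genes were the ligands Ccl9 and Ccl3 and the receptors Cxcr4, Ccr2 and Cx3cr1. The 15 tested genes passed a filter on level and do not stand for the whole family.

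Over all 13414 tested genes, 39.2% were called, 18.5% as higher and 20.8% as lower in resistant blasts. Of the 15 tested chemokine and receptor genes, 33.3% were called, so the share called was near that of all genes, and all 5 calls were in one direction. At an unadjusted p under 0.05 edgeR gave 0 higher and 5 lower. At an adjusted p under 0.05 DESeq2, which tested 28 of the 57 genes, gave 1 higher (Cxcr3) and the same 5 lower. The log2 fold change was below 0 in 12 of the 15 genes, with a median of -0.20 against -0.01 over all tested genes. The groups did not overlap in 6 of 15 genes, against 52.4% of all tested genes. Each of the 5 called genes was above the filter level of 0.362 CPM, which is 10 counts in a library of median size, in all 6 libraries.

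**Figure D1:**
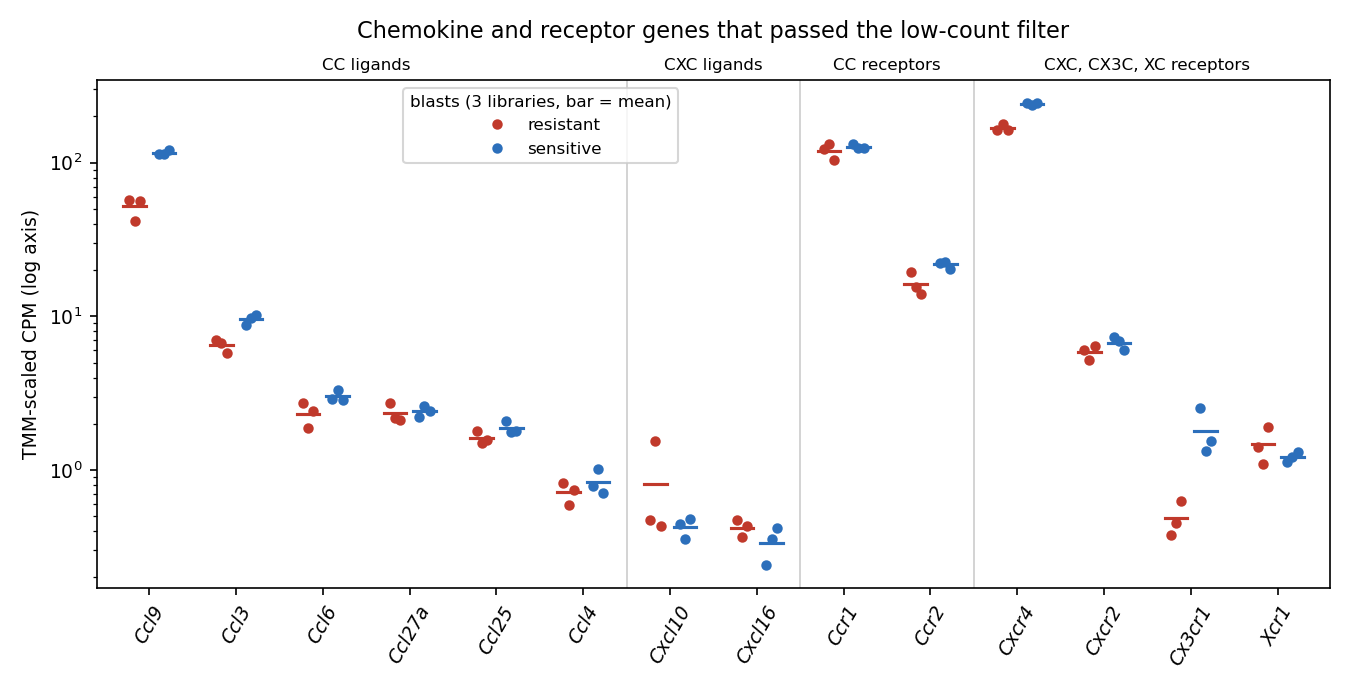
TMM-scaled CPM on a log axis of 14 of the 15 chemokine and receptor genes that passed the low-count filter, with 1 point per library and a bar at the mean of 3 libraries, resistant blasts left and sensitive blasts right for each gene. Ccl9, Ccl3, Cxcr4, Ccr2 and Cx3cr1 lie lower in all 3 resistant libraries than in any sensitive library, and Ccl6 does so without passing the test.

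Per transcript length, the family was dominated by a few genes. Cxcr4 had the highest level, with 93.1 ± 4.83 RPKM in resistant and 134 ± 2.55 RPKM in sensitive blasts (SD, n = 3 each; CPM per kilobase of exon). Next were Ccr1, with 42.1 ± 4.87 RPKM in resistant and 44.9 ± 1.74 RPKM in sensitive blasts, and Ccl9, with 17.1 ± 2.86 RPKM in resistant and 38.1 ± 1.29 RPKM in sensitive blasts. Ccl3 followed at 8.47 ± 0.87 RPKM in resistant and 12.5 ± 1.004 RPKM in sensitive blasts. The order of these 4 genes was the same in both groups. In sensitive blasts the levels of Ccr1 and Ccl9 stood nearer to each other than in resistant blasts.

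The promoters of the 4 genes that kept their call under all 13 processing alternatives are shown because these transcripts were all lower in resistant blasts. Each sequence runs from 250 bases before to 50 bases after the transcription start in RefSeq (GRCm38.p6), on the gene's own strand, and capitals mark the motif hits described after the sequences.
Ccl9, chr11:83578587-83578886, minus strand: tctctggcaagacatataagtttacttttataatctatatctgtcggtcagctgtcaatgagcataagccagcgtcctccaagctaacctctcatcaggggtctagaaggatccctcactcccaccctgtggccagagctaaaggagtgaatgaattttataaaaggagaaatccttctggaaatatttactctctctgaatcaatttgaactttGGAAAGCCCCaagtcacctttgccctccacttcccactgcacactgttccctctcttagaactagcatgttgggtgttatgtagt
Ccl3, chr11:83649329-83649628, minus strand: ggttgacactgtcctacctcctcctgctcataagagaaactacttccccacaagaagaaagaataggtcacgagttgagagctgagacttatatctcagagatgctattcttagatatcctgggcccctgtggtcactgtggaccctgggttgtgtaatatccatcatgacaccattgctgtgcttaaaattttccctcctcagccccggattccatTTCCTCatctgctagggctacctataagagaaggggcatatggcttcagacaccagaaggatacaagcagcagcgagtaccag
Cxcr4, chr1:128592250-128592549, minus strand: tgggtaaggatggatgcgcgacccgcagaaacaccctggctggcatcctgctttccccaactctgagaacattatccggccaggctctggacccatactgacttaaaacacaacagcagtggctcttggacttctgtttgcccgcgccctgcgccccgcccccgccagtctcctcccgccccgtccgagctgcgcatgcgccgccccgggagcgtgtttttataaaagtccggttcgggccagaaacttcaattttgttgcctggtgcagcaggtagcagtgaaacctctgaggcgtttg
Cx3cr1, chr9:120068247-120068546, minus strand: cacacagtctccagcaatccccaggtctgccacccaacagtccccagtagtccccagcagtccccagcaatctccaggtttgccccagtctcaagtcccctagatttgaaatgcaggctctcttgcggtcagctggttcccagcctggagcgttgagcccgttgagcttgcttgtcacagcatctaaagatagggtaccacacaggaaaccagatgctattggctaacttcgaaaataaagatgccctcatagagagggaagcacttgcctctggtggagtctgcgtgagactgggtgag
On either strand, 6 motifs of blood cell factors were searched: the PU.1 core GAGGAA, the C/EBP motif TTGCNNAA, the GATA motif AGATAA, the E-box CACGTG, the ISRE core (2 copies of GAAA with 2 bases between them) and the NF-kB consensus. The Ccl3 window held a PU.1 core 33 bases before the start, a motif present in 28.28% of 32851 promoter windows of this length. The Ccl9 window held an NF-kB consensus match 35 bases before the start, a match present in 4.51% of all windows. The Cxcr4 and Cx3cr1 windows held none of the 6 motifs. At the first start site listed for each of the 12 of 15 tested genes with a promoter in the table, the PU.1 core was in 4 (Ccl27a, Ccl3, Ccr1 and Cxcr2) and the NF-kB consensus in 2 (Ccl9 and Cxcl10). A further listed start site of Ccl27a also held an NF-kB consensus match. Both kinds of match thus occurred in called and uncalled genes, and a match describes letters, not binding.

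Among the tested ligands, Ccl9 fell most. Ccl9 (ENSMUSG00000019122, chromosome 11) encodes a CC chemokine of myeloid cells, known as MIP-1 gamma, that acts on CCR1. It was at 57.6, 42.0 and 56.4 CPM in resistant libraries 1, 2 and 3, against 113, 114 and 121 CPM in the sensitive libraries. The groups did not overlap, and resistant library 2 was the lowest of all. The level was 2.23-fold lower in resistant blasts (log2 fold change -1.15 ± 0.10 SE, edgeR adjusted p = 1.56e-05). Ccl9 made up 72.1% to 79.1% of all ligand CPM in resistant and 84.7% to 86.0% in sensitive libraries. The summed ligand level of 58.2 to 74.8 CPM in resistant and 132 to 141 CPM in sensitive blasts therefore followed this gene.

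Ccl3 (ENSMUSG00000000982, chromosome 11) encodes MIP-1 alpha, an inflammatory ligand of CCR1. Its level was 6.996, 6.74 and 5.73 CPM in the resistant libraries, against 8.74, 9.80 and 10.2 CPM in the sensitive libraries. The 3 resistant values lay under the 3 sensitive values. The difference was 1.48-fold (log2 fold change -0.56 ± 0.12 SE, edgeR adjusted p = 0.00513).

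The other CC ligands that were tested did not pass. Ccl6, another CCR1 ligand of myeloid cells, was at 2.33 ± 0.43 CPM in resistant and 3.03 ± 0.27 CPM in sensitive blasts (SD, n = 3 each). Its groups did not overlap, but the log2 difference of -0.36 ± 0.20 SE had an edgeR adjusted p of 0.167. Ccl4, the chemokine MIP-1 beta, whose gene lies next to Ccl3, was at 0.717 ± 0.116 CPM in resistant and 0.839 ± 0.162 CPM in sensitive blasts, with overlapping values and an edgeR adjusted p of 0.612. Ccl25, known as the CCR9 ligand of thymus and gut, was at 1.62 ± 0.16 CPM in resistant and 1.89 ± 0.18 CPM in sensitive blasts (edgeR adjusted p = 0.45). Ccl27a, a skin ligand of CCR10, was at 2.34 ± 0.35 CPM in resistant and 2.42 ± 0.21 CPM in sensitive blasts (edgeR adjusted p = 0.894). Of its exonic 50-base sequences 45.0% occur also in Ccl27b and other copies, so its count is uncertain.

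The tested CXC ligands were Cxcl10 and Cxcl16, both under 1 CPM in most libraries. Cxcl10, an interferon-induced ligand of CXCR3, was at 0.473, 1.55 and 0.429 CPM in the resistant libraries, against 0.447, 0.353 and 0.481 CPM in the sensitive libraries. Only resistant library 2 stood above the other 5. The log2 fold change was 0.87 ± 0.50 SE (edgeR adjusted p = 0.196), and 0.08 without resistant library 2. Cxcl16, a membrane-bound ligand of CXCR6, was at 0.422 ± 0.055 CPM in resistant and 0.337 ± 0.089 CPM in sensitive blasts (edgeR adjusted p = 0.51). Its exons overlap those of Zmynd15 on the opposite strand over 18.3% of their bases, and the strand setting of the counts is not given in the sources used here.

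**Figure D2:**
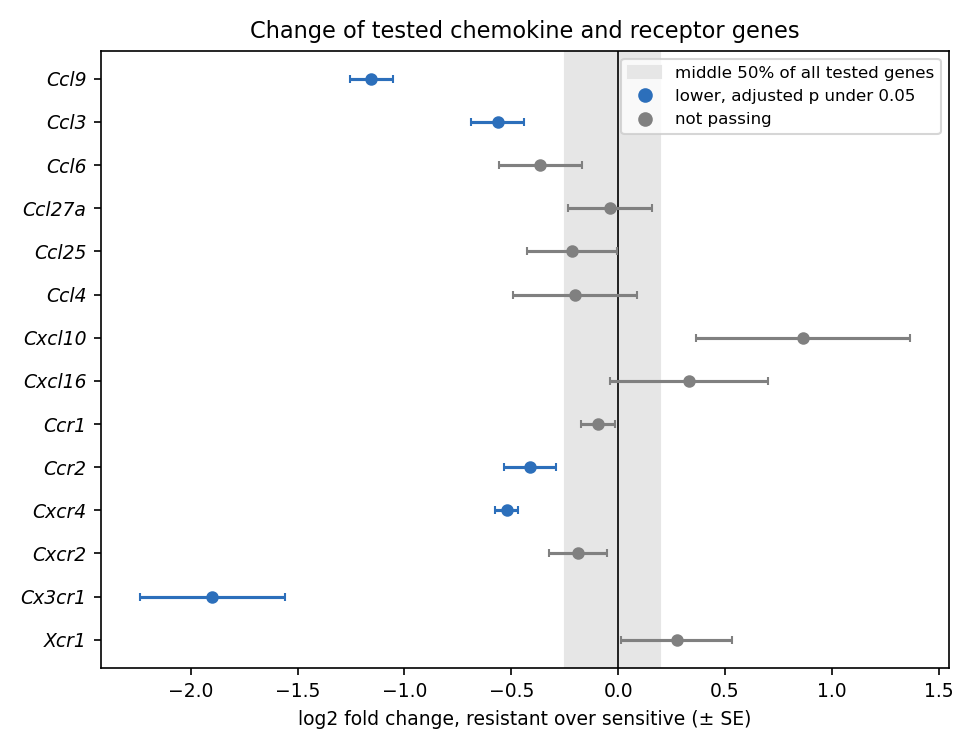
Log2 fold change, resistant over sensitive, with its standard error for 14 of the 15 tested genes, grouped by role, with blue for genes lower at an adjusted p under 0.05 and grey for genes that did not pass. The grey band covers the range between the quartiles of all tested genes, from -0.25 to 0.20, and the 5 called genes lie left of it at -1.90 to -0.41.

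Among the receptors, the transcript of the CXCL12 receptor fell. Cxcr4 (ENSMUSG00000045382, chromosome 1) was at 163, 178 and 163 CPM in the resistant libraries, against 244, 236 and 245 CPM in the sensitive libraries. The groups were far apart relative to their spread. The level was 1.44-fold lower in resistant blasts (log2 fold change -0.52 ± 0.05 SE, edgeR adjusted p = 4.96e-05). Cxcr4 made up 51.7% to 55.8% of all receptor CPM in resistant and 59.1% to 61.1% in sensitive libraries, and the receptor sum was 293 to 334 CPM in resistant and 396 to 413 CPM in sensitive blasts.

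Cx3cr1 (ENSMUSG00000052336, chromosome 9), the receptor of the membrane-bound chemokine CX3CL1 and a marker of patrolling monocytes and macrophages, had the largest fold among the 5. It was at 0.378, 0.455 and 0.624 CPM in the resistant libraries, against 2.55, 1.33 and 1.54 CPM in the sensitive libraries. Sensitive library 1 was the highest, and no resistant value reached any sensitive one. The difference was 3.73-fold (log2 fold change -1.90 ± 0.34 SE, edgeR adjusted p = 0.00157), on 38 counts in resistant and 156 counts in sensitive blasts.

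Ccr2 (ENSMUSG00000049103, chromosome 9), the receptor through which monocytes leave the marrow toward CCL2 and CCL7, was at 19.5, 15.5 and 13.9 CPM in the resistant libraries, against 22.4, 22.5 and 20.4 CPM in the sensitive libraries. The groups did not overlap, though resistant library 1 came close to sensitive library 3. The log2 fold change was -0.41 ± 0.12 SE (1.33-fold lower, edgeR adjusted p = 0.021). This call was lost with any 1 of 4 libraries left out, at an edgeR adjusted p of 0.0624 without resistant library 2, 0.0746 without resistant library 3, 0.0653 without sensitive library 1 and 0.0725 without sensitive library 2. The neutrophil marker sum given above was also lower in resistant blasts, as was the monocyte sum, where most of the difference was Ly6c2. The part of these cells in the lower levels of Ccl9, Ccl3, Cxcr4, Ccr2 and Cx3cr1 was not tested.

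Ccr1, Cxcr2 and Xcr1 did not pass the test. Ccr1, the receptor of Ccl3, Ccl6 and Ccl9 on monocytes and neutrophils, was at 119 ± 13.8 CPM in resistant and 127 ± 4.92 CPM in sensitive blasts (log2 fold change -0.09 ± 0.08 SE, edgeR adjusted p = 0.373). Its values overlapped, with resistant library 2 above 2 of the sensitive libraries. Cxcr2, the receptor that draws neutrophils out of the marrow, was at 5.89 ± 0.63 CPM in resistant and 6.73 ± 0.68 CPM in sensitive blasts (-0.19 ± 0.14 SE, edgeR adjusted p = 0.305). Xcr1, the XCL1 receptor of cross-presenting dendritic cells, was at 1.47 ± 0.41 CPM in resistant and 1.22 ± 0.09 CPM in sensitive blasts (0.27 ± 0.26 SE, edgeR adjusted p = 0.436).

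Many of these genes lie in clusters, which can be read in genomic order. Chromosome 11 carries 14 of the 57 genes, 5 of them tested and 2 lower. There, the neighbours Ccl9, Ccl6, Ccl3 and Ccl4 were tested, and the genes from Ccl2 to Ccl1 before them had at most 3 counts each. Chromosome 9 also carries 14, with 5 tested and 2 lower. Ccr1 and Ccr2 stand near each other there, and of this pair only Ccr2 passed the test. Called and uncalled genes thus lay side by side in both clusters.

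**Figure D3:**
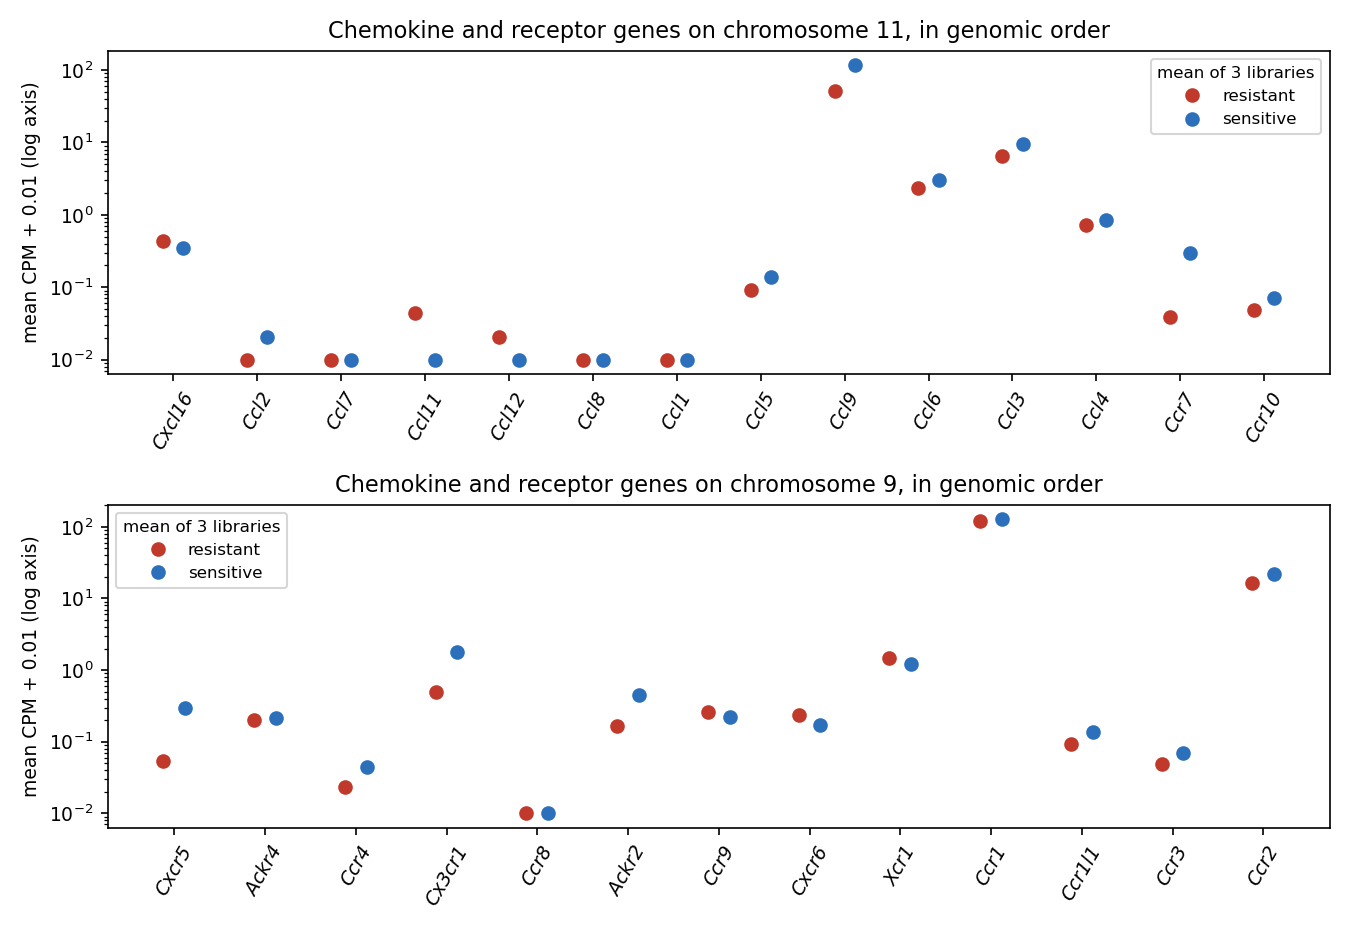
Mean TMM-scaled CPM plus 0.01, on a log axis, of the 14 genes on chromosome 11 (top) and 13 of the 14 on chromosome 9 (bottom) in genomic order, evenly spaced, with resistant blasts left and sensitive blasts right for each gene. Ccl9 on chromosome 11 and Ccr1 on chromosome 9 stand highest in their clusters, and most genes around them lie near the bottom of the axis.

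Under the low-count filter, 42 genes were not tested, and 15 of these had at least 10 counts over the 6 libraries. Their ratios are scaled by library size with the TMM factors, with 95% intervals that cover counting error only. Cxcr3, the receptor of Cxcl9 and Cxcl10 on activated T and NK cells, had 32, 6 and 14 counts in the resistant libraries, against 4, 3 and 6 counts in the sensitive libraries. The ratio was 4.32 (interval 2.32 to 8.65), and resistant library 1 held 32 of the 52 reads in resistant blasts while resistant library 2 only equalled the highest sensitive library in raw counts. Without the filter its edgeR adjusted p was 0.0032, and DESeq2 gave 0.0407. The fit without the filter moved edgeR adjusted p-values at nearly the same fold change. For Ccl9 it gave 4.08e-15, against 1.56e-05 with the filter, and for Ccl6 it gave 0.248, against 0.167. Values without the filter, here and below, are read with this limit. Of 8 T cell markers, Cd3e, Cd3g and Cd2 had at most 2 counts over all libraries. Cd3d had 21 counts in resistant and 29 counts in sensitive blasts, and Cd4 had 10 and 28. The list summed to 6.37 to 7.55 CPM in resistant and 8.02 to 9.77 CPM in sensitive blasts, mostly from Cd8a, Lat and Lck. Cd8a was lower, with 148 counts in resistant and 255 counts in sensitive blasts (edgeR adjusted p = 0.0406), and Lat and Lck did not pass. The 7 NK cell markers summed to 69.7 to 96.1 CPM in resistant and 47.7 to 64.4 CPM in sensitive blasts, mostly from Nkg7. Nkg7 was higher, at 86.7 CPM in resistant and 55.4 CPM in sensitive blasts (log2 fold change 0.64, edgeR adjusted p = 0.00357). Klrb1c had 10 counts in resistant and 8 counts in sensitive blasts, Eomes had 3 and 6, and Klrd1 had 0 and 1. Ncr1, an NK receptor, had 2 counts in resistant and 0 counts in sensitive blasts. Gzma had 12 counts in resistant blasts, 10 of them in resistant library 2, and 1 count in sensitive blasts. Prf1, the pore-forming protein gene of cytotoxic cells, was lower, with 10 counts in resistant and 57 counts in sensitive blasts (log2 fold change -2.38, edgeR adjusted p = 0.00393). The part of T and NK cells in the Cxcr3 counts was not tested.

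Ccr7, the receptor that guides lymphocytes and dendritic cells to lymph nodes, had 0, 1 and 1 counts in the resistant libraries, against 11, 8 and 5 counts in the sensitive libraries. The ratio was 0.0901 (interval 0.0103 to 0.363), with an edgeR adjusted p of 0.00718 without the filter and a DESeq2 adjusted p of 0.0546. Cxcr5, the receptor that brings B cells into follicles, had 0, 2 and 1 counts in the resistant libraries, against 7, 9 and 8 counts in the sensitive libraries. The ratio was 0.135 (interval 0.0260 to 0.445), with an edgeR adjusted p of 0.0162 without the filter and a DESeq2 adjusted p of 0.0867. Both receptors are lymphocyte genes and were nearly absent from resistant libraries. In the same libraries the B cell gene Ms4a1 had 0 counts in resistant and 10 counts in sensitive blasts, and Pax5 had 0 counts in resistant and 5 counts in sensitive blasts. All 7 B cell markers summed to 63.3 to 64.2 CPM in resistant and 169 to 200 CPM in sensitive blasts. Most of that difference was the immunoglobulin gene Ighm, at 24.6 CPM in resistant and 140 CPM in sensitive blasts. The B cell receptor genes Cd79b, at 38.3 CPM in resistant and 38.9 CPM in sensitive blasts (edgeR adjusted p = 0.813), and Cd79a (edgeR adjusted p = 0.958) did not pass. The part of B cells in the Ccr7 and Cxcr5 counts was not tested.

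Cxcl12, the stromal ligand of Cxcr4, had 1, 2 and 3 counts in the resistant libraries, against 13, 11 and 8 counts in the sensitive libraries. The ratio was 0.203 (interval 0.0693 to 0.491), with an edgeR adjusted p of 0.0111 without the filter and a DESeq2 adjusted p of 0.0759. The 10 markers of stroma and endothelium, which include the stromal genes Lepr and Kitl, summed to 1.25 to 1.55 CPM in resistant and 1.03 to 1.35 CPM in sensitive blasts, and Emcn was at 0. Ackr2, an atypical receptor that scavenges inflammatory CC chemokines, had 7, 3 and 3 counts in the resistant libraries, against 9, 13 and 15 counts in the sensitive libraries. Its ratio was 0.38 (interval 0.185 to 0.731), with an edgeR adjusted p of 0.0587 without the filter and a DESeq2 adjusted p of 0.195. Both genes were lower in every resistant library than in any sensitive library, at a depth of a few reads.

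The remaining 10 genes with at least 10 counts had overlapping groups. Ccl17, a CCR4 ligand, had 14, 4 and 4 counts in the resistant libraries, against 1, 3 and 6 counts in the sensitive libraries. Cxcl9, an interferon-induced CXCR3 ligand, had 3, 13 and 9 counts in the resistant libraries, against 5, 6 and 5 counts in the sensitive libraries. Resistant library 2, where Cxcl10 was highest, also held the most Cxcl9 reads. Ccl5, Ccl28, Ccr1l1, Ccr9, Cxcr6, Ackr4, Cx3cl1 and Cxcl15 made up the rest, with sums of 7 to 22 counts in resistant and 3 to 24 counts in sensitive blasts. The main Ccr2 ligands Ccl2 and Ccl7 had 1 and 0 counts over all 6 libraries, and the Cxcr2 ligands Cxcl1 and Cxcl2 had 0 each. Cx3cl1, the ligand of Cx3cr1, had 7 counts in resistant and 3 counts in sensitive blasts.

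**Figure D4:**
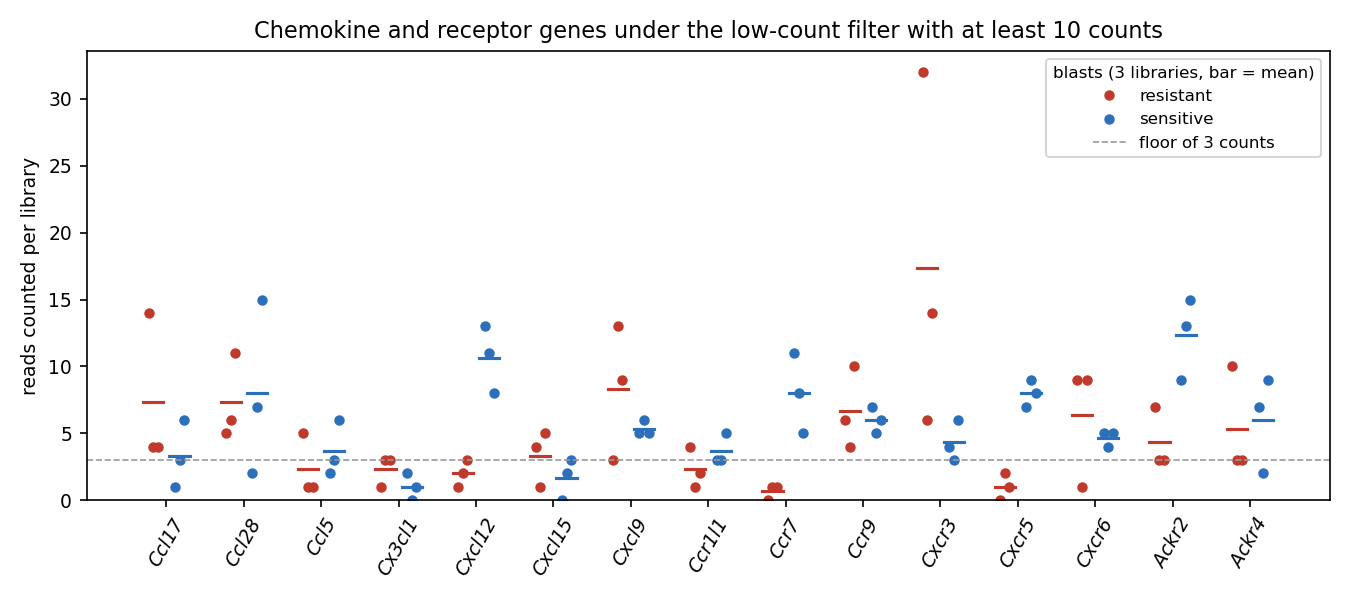
Reads counted per library for the 15 genes under the low-count filter with at least 10 counts in all, with 1 point per library and a bar at the mean, resistant blasts left and sensitive blasts right, and a dashed line at 3 counts. Cxcr3 lies higher in resistant blasts, with 52 against 13 counts, while Ccr7, Cxcr5, Cxcl12 and Ackr2 lie higher in sensitive blasts.

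Genes that work with the chemokine receptors were read from 5 lists of 76 genes, of which 65 were tested. Of these, 8 were higher, 28 lower and 29 did not pass, with a median log2 fold change of -0.17 (edgeR quasi-likelihood test, adjusted over all genes). Read against the 20.8% of all tested genes that were lower and the 18.5% that were higher, these lists are given as a description. Without sensitive library 2, 5 of the 65 were higher.

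Among 8 genes related to the family but outside its symbols, 5 were tested, with 1 higher and 2 lower. Mif, a cytokine that binds CD74, CXCR2 and CXCR4, was at 303, 323 and 306 CPM in the resistant libraries, against 186, 206 and 217 CPM in the sensitive libraries. It was higher in each resistant library than in any sensitive one (log2 fold change 0.62 ± 0.06 SE, edgeR adjusted p = 4.67e-05). Cd74, the MIF receptor subunit and MHC class II invariant chain, was at 0.284, 1.27 and 0.117 CPM in the resistant libraries, against 1.45, 2.08 and 1.48 CPM in the sensitive libraries. Its log2 fold change was -1.65 ± 0.57 SE (edgeR adjusted p = 0.041), a call lost without resistant library 1 (0.152), resistant library 3 (0.116), sensitive library 1 (0.0804), sensitive library 2 (0.128) or sensitive library 3 (0.0733). Cklf, a chemokine-like factor, was at 8.42 ± 1.28 CPM in resistant and 11.6 ± 0.22 CPM in sensitive blasts (log2 fold change -0.46 ± 0.12 SE, edgeR adjusted p = 0.0134). The atypical receptor gene Ccrl2 (-0.47 ± 0.20, edgeR adjusted p = 0.0868) and Dpp4, a protease that inactivates CXCL12 (0.17 ± 0.08, edgeR adjusted p = 0.11), did not pass. Without sensitive library 1, Dpp4 had an edgeR adjusted p of 0.048. The platelet chemokines Pf4 and Ppbp and the chemerin receptor Cmklr1 were under the filter.

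Of 13 other receptors of chemoattractants and related mediators, 8 were tested, with 1 higher, 4 lower and 3 not passing. Gpr183, an oxysterol receptor that positions B cells and myeloid cells, was at 3.91, 3.37 and 3.20 CPM in the resistant libraries, against 29.6, 23.9 and 27.6 CPM in the sensitive libraries. Its log2 fold change of -2.95 ± 0.12 SE (edgeR adjusted p = 1.14e-07) exceeded in size that of each tested chemokine and receptor gene. Ltb4r1, the leukotriene B4 receptor, was higher, at 109 ± 2.86 CPM in resistant and 74.8 ± 10.3 CPM in sensitive blasts (0.55 ± 0.09 SE, edgeR adjusted p = 0.000848). The histamine receptor gene Hrh2 fell by 1.58 and the platelet-activating factor receptor gene Ptafr fell by 0.76 on the log2 scale.

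Downstream, most Gi signalling genes did not pass. Of 18 tested, 2 were higher, 3 lower and 13 did not pass, with a median of -0.07. The number higher was 1 when scaled by library totals alone, and 1 without resistant library 1, resistant library 3, sensitive library 2 or sensitive library 3. Pik3cg, the PI3-kinase subunit driven by G protein beta-gamma subunits, was at 110, 91.0 and 98.5 CPM in the resistant libraries, against 163, 154 and 146 CPM in the sensitive libraries (-0.62 ± 0.08 SE, edgeR adjusted p = 0.000123). The phospholipase gene Plcb2 (-0.42) and the adenylyl cyclase gene Adcy7 (-0.28) were also lower, and the gamma subunit gene Gng5 was higher (0.25).

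Of 13 tested genes that switch off receptors or their G proteins, 8 were lower, 2 higher and 3 did not pass. The number lower was 4 without resistant library 3, without sensitive library 2 or without sensitive library 3, and 5 without the low-count filter. Rgs2, which speeds GTP hydrolysis by G protein alpha subunits, was at 67.1, 61.7 and 62.6 CPM in the resistant libraries, against 124, 114 and 108 CPM in the sensitive libraries (-0.85 ± 0.07 SE, edgeR adjusted p = 6.71e-06). Rgs12, of the same family, was also lower (-0.70 ± 0.09 SE, edgeR adjusted p = 0.000159). The receptor kinases moved apart, with Grk3 at 43.5 ± 2.17 CPM in resistant and 29.7 ± 1.61 CPM in sensitive blasts (0.55 ± 0.07 SE, edgeR adjusted p = 0.00024), and Grk2 at 402 ± 17.6 CPM in resistant and 513 ± 11.9 CPM in sensitive blasts (-0.35 ± 0.05 SE, edgeR adjusted p = 0.000447). Grk2 and Grk3 both phosphorylate active receptors ahead of arrestin binding.

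All 21 genes of cytoskeleton and migration were tested, with 11 lower, 2 higher and 8 not passing. Without sensitive library 2, 8 were lower and 0 higher. Ptk2b, the calcium-dependent focal adhesion kinase PYK2, was at 50.1, 54.7 and 53.9 CPM in the resistant libraries, against 85.7, 85.8 and 84.6 CPM in the sensitive libraries (-0.69 ± 0.06 SE, edgeR adjusted p = 1.18e-05). The Rac exchange factor genes Tiam1 (-0.60) and Prex1 (-0.46) and the Src-family kinase gene Fgr (-1.72) were lower as well. Rac2, the main Rac of blood cells, was at 835 ± 32.6 CPM in resistant and 877 ± 24.9 CPM in sensitive blasts and did not pass (edgeR adjusted p = 0.284); it was named after its value was seen.

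**Figure D5:**
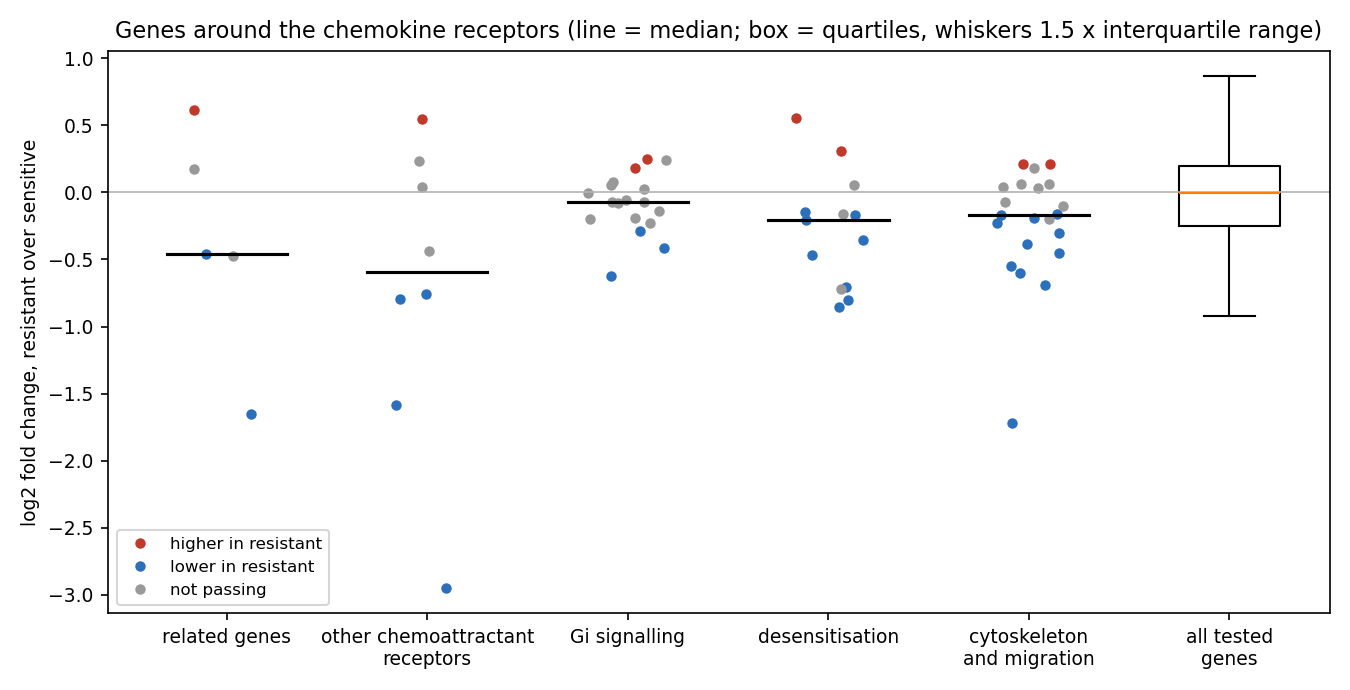
Log2 fold change, resistant over sensitive, of the 65 tested genes in 5 lists around the chemokine receptors, with 1 point per gene, a line at the list's median and, at the right, a box of all 13414 tested genes. Points are red where higher, blue where lower and grey where not passing, and the median lies between -0.60 and -0.07 in every list.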

How the data were processed

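RNA was measured in 6 libraries. The authors deposited unnormalised whole-number counts per Ensembl gene. TopHat2, RSEM and the mouse build mm9 appear in the submitters' processing notes. Not given in the sources used here are the annotation release, the strand setting, the handling of shared reads and whether RSEM estimates were rounded. Libraries were TruSeq, per the labels' protocols. IDs were named with GENCODE M21 (31655 of 35932 matched), which also gave exon lengths for RPKM. No columns were left unused (0).

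Counts were filtered with filterByExpr (minimum 10 counts at the median library), scaled with TMM and tested with the edgeR 4.0.16 quasi-likelihood test (R 4.3.3, group as the only term). P-values were adjusted by Benjamini-Hochberg across 13414 genes, with 0.05 as the threshold. Log2 fold changes are resistant over sensitive. The common dispersion corresponded to a variation of 8.37% between libraries of a group, and no pair of libraries was as close as a repeat deposit. Count ratios have exact 95% intervals. DESeq2 1.42.0 was 1 of 13 alternatives. Motifs were searched with Python 3.11.15.

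Every tested gene of the family was named, apart from items that are not reported here, with values per library where it passed. Genes under the filter were named from 10 counts over all libraries, and each list gave its 4 smallest adjusted p-values past the test. The genes and lists were chosen with earlier results of these data known. Symbols matched to no protein-coding gene in GENCODE M21 were not analysed here.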

Additional observations from a re-analysis of the deposited data

How the results depend on the processing

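Of the 14 tested genes reported here, 13 kept their side of the threshold under every alternative that tested them. All 5 lower genes stayed lower under other scalings, DESeq2, the other filters and the replicate block, and 4 of the 5 did so without resistant library 2, resistant library 3, sensitive library 1 or sensitive library 2, where Ccr2 was lost. The number lower was 8 without the low-count filter, which added Ccr7, Cxcl12 and Cxcr5, and 4 to 7 with 1 library left out, where 17 to 19 of the 57 genes passed the filter. The number higher was 1 (Cxcr3) with DESeq2 and 1 (Cxcr3) without the filter, and 0 to 1 with 1 library left out. Over all genes, 1641 to 2521 were higher with 1 library left out, the fewest without sensitive library 2, and in the lists around the receptors 5 to 9. Ccl27a, which did not pass, had log2 fold changes of -0.17 to 0.04 with 1 library left out (-0.1728 without resistant library 1, 0.0146 without resistant library 2, 0.0414 without resistant library 3 and 0.0185 without sensitive library 2). The cause of these changes was not tested. Same-numbered libraries had correlations of 0.07, 0.02 and -0.11 in their deviations, so the numbers were not taken to pair them; with the replicate block, 2497 genes were higher and 2824 lower, and 0 and 5 in the family. Scalings moved the median of all genes by at most 0.03 on the log2 scale. Genes under about 10 counts are limited by depth.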

Other observations

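Ratios of 2 genes' counts within a library need no scaling, and the pairs below were chosen after their values were seen and carry no test. The ratio of Ccl9 to Ccl6 counts, 2 ligands of CCR1 that neighbour each other on chromosome 11, was 21.3, 22.5 and 23.3 in the resistant libraries, against 39.2, 34.3 and 42.2 in the sensitive libraries. The ratio of Cxcr4 to Ccr1 counts was 1.34, 1.36 and 1.57 in the resistant libraries, against 1.83, 1.89 and 1.97 in the sensitive libraries. In both pairs the groups did not overlap. The ratio of Ccl3 to Ccl4 counts was 8.54, 11.4 and 7.74 in the resistant libraries, against 11.04, 9.62 and 14.5 in the sensitive libraries. In this last pair the groups overlapped.

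Markers of other cells moved in both directions, and over all tested genes 18.5% were higher and 20.8% were lower. The 7 eosinophil markers summed to 412 to 576 CPM in resistant and 131 to 186 CPM in sensitive blasts, with 2 of 5 tested higher. The difference was almost wholly these 2, Prg2 and Prg3. Prg2 was at 301 CPM in resistant and 71.8 CPM in sensitive blasts, and Prg3 at 166 and 41.6 CPM. Siglecf, at 42.7 CPM in resistant and 43.0 CPM in sensitive blasts, Epx and Il5ra did not pass. The eosinophil chemokine receptor gene Ccr3 had 8 counts over all 6 libraries. The 8 basophil and mast cell markers summed to 71.3 to 73.4 CPM in resistant and 87.7 to 103 CPM in sensitive blasts, with 3 of 4 tested lower. Most of the difference was Cpa3, at 6.88 CPM in resistant and 30.6 CPM in sensitive blasts. Gata2, the largest part of the sum, was at 63.0 CPM in resistant and 59.0 CPM in sensitive blasts and did not pass (edgeR adjusted p = 0.219). The 7 dendritic cell markers summed to 90.6 to 106 CPM in resistant and 142 to 171 CPM in sensitive blasts, with Cd209a at 0. Of 4 tested, 2 were lower and 1 was higher. Flt3, at 56.1 CPM in resistant and 102 CPM in sensitive blasts, made up most of the difference. Itgax was also lower, at 1.04 CPM in resistant and 13.1 CPM in sensitive blasts. Zbtb46 was higher, at 0.570 CPM in resistant and 0.294 CPM in sensitive blasts, and Bst2 did not pass. The 7 megakaryocyte markers summed to 10.5 to 12.2 CPM in resistant and 11.7 to 12.8 CPM in sensitive blasts, with Gp6 at 0. Of 3 tested, 1 was higher, 1 was lower and 1 did not pass. Gp1ba was higher, at 4.72 CPM in resistant and 2.01 CPM in sensitive blasts (edgeR adjusted p = 0.00352). Itga2b was lower, at 5.10 CPM in resistant and 8.29 CPM in sensitive blasts (edgeR adjusted p = 0.00376).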
